A study of Homo sapiens with 18 samples.

Results

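The genes described here are 10 aldehyde dehydrogenases, *ALDH1A1*, *ALDH1A2*, *ALDH1A3*, *ALDH1B1*, *ALDH2*, *ALDH3A1*, *ALDH3A2*, *ALDH3B1*, *ALDH3B2* and *ALDH7A1*, taken by symbol from the 40266 genes of the table. *ALDH3A1* was chosen by its measured difference between Panc89 Holoclone and Panc89 Paraclone cells. That contrast is therefore given for all 10 genes as a description with no test, and *ALDH3A1* has no test in any comparison that holds Panc89 Holoclone or Panc89 Paraclone cells. The list was drawn up with earlier results of these data known, so counts over it are descriptions. The other 9 human aldehyde dehydrogenase genes are given as well, so that the family of 19 is whole.

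RNA of the pancreatic ductal adenocarcinoma (PDAC) lines Panc1 and Panc89 was sequenced in 18 libraries. Parental Panc1 cells come from a primary tumor and serve as the mesenchymal-like model, and parental Panc89 cells come from a lymph node metastasis and serve as the epithelial model. From each parental line, Holoclone cells, which represent cancer stem cells (CSCs), and Paraclone cells, which represent non-CSCs, were grown from single cells. No treatment is named for any of the 6 groups, and each was measured in 3 libraries from different passages, and each Holoclone or Paraclone group is 1 clone, so a difference between clones cannot be told apart from a difference between their founder cells, and p-values cover the spread between passages only.

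*VIM*, an intermediate filament of mesenchymal cells, had a level of 11.3 to 12.1 in the 3 Panc1 groups and of 0.09 to 0.44 in the 3 Panc89 groups, and the epithelial cadherin *CDH1* had 0.97 to 1.92 against 6.25 to 6.63. Of the other epithelial markers, *EPCAM* had group means of 1.43 to 4.92 in Panc1 and 7.48 to 8.12 in Panc89, while the keratins *KRT8*, *KRT18* and *KRT19* were high in both lines, at 7.77 to 10.5 in Panc1 and 8.68 to 10.7 in Panc89, and *KRT8* (−1.71) and *KRT18* (−0.95) were lower in Panc89 than in Panc1 Holoclone cells. All levels are log2(TPM + 1), where TPM are a share of the transcripts of a library, corrected for transcript length. The acinar and endocrine markers were near 0, and so were the leukocyte markers *CD3E* and *PTPRC*, while *CD68* was at 3.56 to 7.07. Between 12932 and 14199 genes per library reached 1 TPM.

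Aldehyde dehydrogenases oxidize aldehydes to carboxylic acids with NAD or NADP as the electron acceptor. The ALDH1A enzymes make retinoic acid from retinal, the mitochondrial enzymes ALDH1B1 and ALDH2 oxidize acetaldehyde and other small aldehydes, the ALDH3 enzymes act on fatty, aromatic and lipid-derived aldehydes, and ALDH7A1 acts in lysine breakdown. Aldehyde dehydrogenase activity is widely used to enrich stem-like cells from tumors, including PDAC, and is commonly attributed to several members of the family rather than to a single gene.

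*ALDH1A1* and *ALDH1A3* code for enzymes with the same reaction, and their mRNA levels in these cells were far apart, under 1 TPM in every library of 5 of the 6 groups for *ALDH1A1* and at least 58.8 TPM in all 18 libraries for *ALDH1A3*. Any part of the promoters in these levels was not tested. The 250 bases before the RefSeq start of each gene (GRCh38.p14) are shown. They lie at chr9:72953054-72953303 on the minus strand for *ALDH1A1*, with CCAAT in capitals, and at chr15:100879581-100879830 on the plus strand for *ALDH1A3*, with every CG in capitals.
ALDH1A1: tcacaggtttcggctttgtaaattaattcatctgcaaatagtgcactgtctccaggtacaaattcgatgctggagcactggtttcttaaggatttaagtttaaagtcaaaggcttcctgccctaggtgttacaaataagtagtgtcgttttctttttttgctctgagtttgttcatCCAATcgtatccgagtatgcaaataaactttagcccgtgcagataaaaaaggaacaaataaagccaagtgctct
ALDH1A3: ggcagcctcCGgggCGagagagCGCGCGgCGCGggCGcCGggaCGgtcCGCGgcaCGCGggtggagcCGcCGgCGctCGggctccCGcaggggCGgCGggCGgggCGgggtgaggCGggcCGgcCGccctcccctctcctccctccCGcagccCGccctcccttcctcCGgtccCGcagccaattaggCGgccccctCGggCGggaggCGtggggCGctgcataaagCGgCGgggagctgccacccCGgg
Both stretches lie inside the longer spans that GENCODE 44 gives these genes. The *ALDH1A1* stretch had a GC content of 38.4% with 6 CG dinucleotides, and the *ALDH1A3* stretch had 82.4% with 38, while the median of 35114 promoters of the same length was 58.0% with 11. CCAAT, searched on both strands like the motifs that follow, was found in both stretches and in 32.01% of all promoters. GCGTG, the core bound by the aryl hydrocarbon receptor, was found in the *ALDH1A3* stretch and not in that of *ALDH1A1*, and 32.22% of all promoters held it. TATAAA and TGACNNNGC were in neither stretch, against shares of 10.72% and 10.91% of all promoters. RefSeq promoters were matched for 7 of the 10 genes, and none was matched for *ALDH2*, *ALDH3A1* or *ALDH3B2*.

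*ALDH3A1*, an enzyme of aromatic and lipid peroxidation aldehydes that is abundant in the cornea, was the most abundant family transcript of parental Panc89 and Panc89 Holoclone cells and was close to 0 in all Panc1 cells. The Panc89 Holoclone libraries had 1115, 1257 and 897 TPM, the parental Panc89 libraries 210, 282 and 267 TPM, and the Panc89 Paraclone libraries 4.44, 14.1 and 19.6 TPM. The 3 Panc89 groups did not overlap, and the parental libraries lay between the clones. In Panc1, the parental libraries had 0, 0 and 0.0511 TPM, all 3 Holoclone libraries were listed at 0, and the Paraclone libraries had 0.140, 0.197 and 0.348 TPM. In bulk RNA, fewer cells that express the gene and less RNA per cell cannot be told apart.

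The Panc89 Holoclone level of *ALDH3A1* was 10.08 ± 0.25 (SD, n = 3) and the Panc89 Paraclone level 3.57 ± 1.00 (SD, n = 3), a difference of 6.50 with a TPM ratio of 85.8. Panc89 Holoclone cells had 4.31 times the mean TPM of parental Panc89 cells, and parental Panc89 cells had 19.9 times that of Panc89 Paraclone cells. Between the parental lines, which the choice of the gene did not use, *ALDH3A1* was 7.95 ± 0.33 (SE) higher in Panc89. The gene was among those tested only because of its Panc89 values, so this difference is a description with no p. Within Panc1, the Holoclone and Paraclone libraries did not overlap, but they differed by only −0.29 ± 0.33 (SE, adjusted p = 0.531, limma-trend with Benjamini-Hochberg adjustment over 16093 genes, as for every adjusted p here), at levels under 0.4 TPM where the added 1 TPM compresses a difference. With 0.1 TPM added instead, this difference was −1.67 (adjusted p = 0.00397). The SE is drawn from all 6 groups, whose SD was 0 in Panc1 Holoclone, 0.12 in Panc1 Paraclone and 1.00 in Panc89 Paraclone cells. The Panc1 difference had an adjusted p under 0.05 in a fit of the 2 groups alone.

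**Figure D1:**
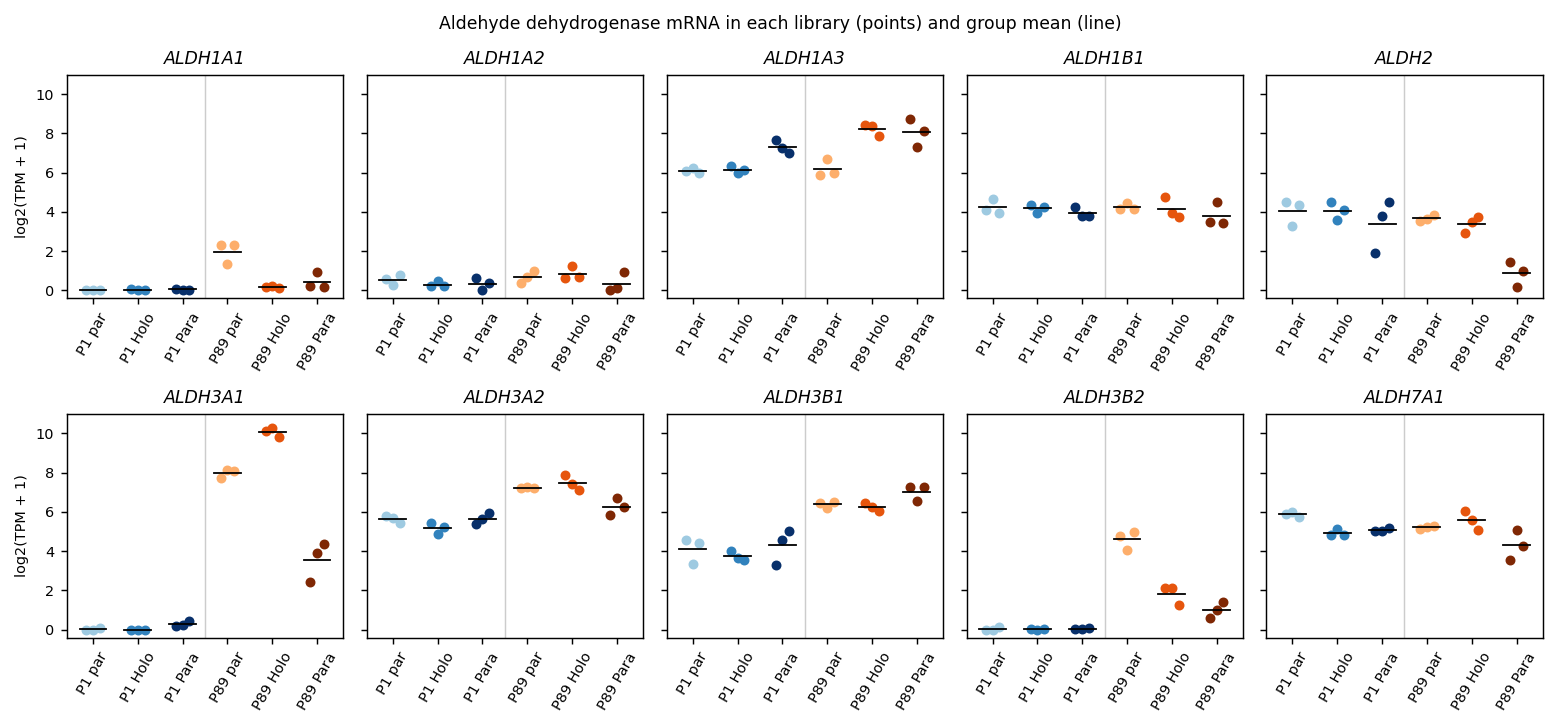
Level of the 10 genes in log2(TPM + 1) (vertical axis) in each of the 18 libraries (points) by group (horizontal axis, P1 is Panc1, P89 is Panc89, par is parental, Holo is Holoclone, Para is Paraclone), with a line at each group mean. *ALDH3A1* spans from 0 to 10.08 between group means, *ALDH1A1* and *ALDH3B2* stand out in parental Panc89 cells, and *ALDH2* is lowest in Panc89 Paraclone cells.

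*ALDH3A1* lies on chromosome 17 at 19737984 to 19748943 on the minus strand (GRCh38, GENCODE 44), and *ALDH3A2*, the membrane-bound fatty aldehyde dehydrogenase that is lost in Sjögren-Larsson syndrome, lies 52223 bases away at 19648136 to 19685760 on the plus strand. *ALDH3A2* was expressed in all 18 libraries. It was at 146, 153 and 148 TPM in parental Panc89 cells, at 232, 168 and 137 TPM in Panc89 Holoclone cells and at 57.1, 104 and 74.2 TPM in Panc89 Paraclone cells. The Paraclone libraries were below all others of Panc89, and the parental and Holoclone libraries overlapped. The Holoclone cells had 2.28 times the mean TPM of the Paraclone cells, a far smaller ratio than that of *ALDH3A1*. In Panc1 it ranged from 28.4 to 59.9 TPM, below every Panc89 library except the lowest Panc89 Paraclone one. *ALDH3A2* was 1.59 ± 0.22 (SE) higher in parental Panc89 than in parental Panc1 cells (adjusted p = 1.29e-05), and 0.96 ± 0.22 (SE) lower in Panc89 Paraclone than in parental Panc89 cells (adjusted p = 0.00631). Of the 20 tested genes nearest to *ALDH3A1*, within 1060.2 kb, 2 were higher by more than 1 in Panc89 Holoclone than in Panc89 Paraclone cells, *ALDH3A2* and the transporter *SLC47A1*, and the median of the 20 was 0.07.

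*ALDH3B1*, which oxidizes aldehydes of lipid peroxidation, showed the opposite order of the Panc89 clones. The Panc89 Paraclone libraries had 153, 94.5 and 152 TPM, above the 86.9, 74.8 and 64.7 TPM of Panc89 Holoclone cells and the 87.0, 73.2 and 90.1 TPM of parental Panc89 cells. Against the parental cells this amounted to 0.64 ± 0.37 (SE, adjusted p = 0.265, 95% interval −0.15 to 1.43), which was not called although the libraries did not overlap. In Panc1, *ALDH3B1* was lower and less even, with 22.7, 9.15 and 20.3 TPM in parental, 14.9, 11.7 and 10.8 TPM in Holoclone and 8.94, 22.5 and 31.8 TPM in Paraclone cells, and these groups overlapped. Between the parental lines it was 2.29 ± 0.37 (SE) higher in Panc89 (adjusted p = 5.28e-05).

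*ALDH3B2*, the paralog of *ALDH3B1* on chromosome 11, was detected above 0.1 TPM in Panc89 alone. Parental Panc89 libraries had 26.1, 15.8 and 31 TPM, Panc89 Holoclone libraries 3.31, 3.42 and 1.37 TPM, and Panc89 Paraclone libraries 0.486, 0.976 and 1.66 TPM. All 3 parental libraries were above both clones, while the clones overlapped with each other. The difference from parental cells was −2.78 ± 0.26 (SE) in the Holoclone (adjusted p = 1.64e-06) and −3.62 ± 0.26 (SE) in the Paraclone cells (adjusted p = 1.59e-07). All Panc1 libraries were below 0.1 TPM, and the parental lines differed by 4.57 ± 0.26 (SE), given with no p since the gene reached 1 TPM in Panc89 alone. *ALDH3B2* shared 4.10% of its 31-base words, the word length kallisto matches, with *ALDH3B1*, so reads of both genes may be divided with some uncertainty.

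*ALDH1A3* was the retinal-oxidizing gene with the highest level in every group, and it was the family gene for which both Panc89 clones exceeded their parental line. Its libraries had 58.8, 102 and 62.1 TPM in parental Panc89, 341, 335 and 233 TPM in Panc89 Holoclone and 422, 159 and 275 TPM in Panc89 Paraclone cells. No parental library reached the lowest clone library, and the clones overlapped. *ALDH1A3* was 2.04 ± 0.29 (SE) higher in the Holoclone (adjusted p = 0.000106) and 1.86 ± 0.29 (SE) higher in the Paraclone than in the parental cells (adjusted p = 0.000318), with TPM ratios of 4.08 and 3.84. The Holoclone and Paraclone cells differed by 0.18, and this turned to −0.19 without Panc89 Paraclone replicate 2.

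In Panc1, *ALDH1A3* was higher in Paraclone cells. The Panc1 Paraclone libraries had 200, 150 and 126 TPM, against 67.9, 74.1 and 62.0 TPM in parental and 80.2, 61.2 and 69.3 TPM in Holoclone cells. The Paraclone libraries were above all the others of Panc1, and the parental and Holoclone libraries overlapped. The Panc1 Holoclone level was 1.15 ± 0.29 (SE) below that of the Panc1 Paraclone cells (adjusted p = 0.00602), and the Paraclone level was 1.19 ± 0.29 (SE) above the parental one (adjusted p = 0.00696). Between the parental lines it differed by 0.08 ± 0.29 (SE, adjusted p = 0.813, 95% interval −0.54 to 0.71), and without Panc89 parental replicate 2 by −0.16. The gene lies on chromosome 15 at 100877714 to 100916626, where the opposite-strand transcript *ALDH1A3-AS1* shares 29.41% of its 31-base words. The strand setting of the quantification is not given in the sources used here, and *ALDH1A3-AS1* itself was at 0.97 to 2.71 in the group means, lowest within Panc1 in the Paraclone cells.

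*ALDH1A1*, which also makes retinoic acid and is a common stem cell marker, was detected above 1 TPM only in parental Panc89 cells. Those libraries had 3.89, 1.52 and 3.95 TPM, the Panc89 Holoclone libraries 0.130, 0.176 and 0.0948 TPM and the Panc89 Paraclone libraries 0.185, 0.892 and 0.135 TPM. The clones overlapped, and both lay below every parental library. It was 1.80 ± 0.23 (SE) lower in the Holoclone and 1.53 ± 0.23 (SE) lower in the Paraclone than in the parental cells. The gene entered the tested genes through the parental Panc89 libraries alone, so no p is given for its differences from them. In Panc1, parental libraries were listed at 0 and no clone library exceeded 0.0651 TPM. *ALDH1A2*, the third retinal-oxidizing gene, reached 1 TPM in 1 library, at 1.34 TPM in a Panc89 Holoclone replicate, and was not tested.

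The parental Panc89 libraries differed from the clones in other genes too. The endothelial markers *PECAM1* and *CDH5* were highest there as well, 2 of 2 markers, with summed values of 55.1 to 68.9 TPM in parental Panc89 cells, 0.913 to 1.80 TPM in Panc89 Holoclone and 2.89 to 8.80 TPM in Panc89 Paraclone cells. *PECAM1* was 5.05 lower in the Holoclone (adjusted p = 1.90e-09) and 3.57 lower in the Paraclone than in the parental cells (adjusted p = 1.59e-07). Their part in the levels of *ALDH1A1* and *ALDH3B2* was not tested.

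*ALDH2*, the main mitochondrial acetaldehyde dehydrogenase, was low in Panc89 Paraclone cells, with 1.73, 0.136 and 1.00 TPM. The parental Panc89 libraries had 10.7, 11.7 and 13.5 TPM and the Panc89 Holoclone libraries 6.53, 10.2 and 12.4 TPM, so both groups stood above the Paraclone cells and overlapped with each other. The Paraclone level was 2.81 ± 0.53 (SE) below the parental one (adjusted p = 0.00128). In Panc1, the libraries had 22.0, 8.79 and 19.6 TPM in parental, 21.5, 11 and 16.2 TPM in Holoclone and 2.74, 12.8 and 21.7 TPM in Paraclone cells. The Panc1 groups overlapped, and their Holoclone minus Paraclone difference of 0.66 ± 0.53 (SE, adjusted p = 0.359) became −0.09 without Panc1 Paraclone replicate 1, the library that was also lowest in *ALDH3B1*. *ALDH2* shared 22.74% of its 31-base words with other genes.

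*ALDH1B1*, the other mitochondrial enzyme of the list, was between 9.66 and 26.2 TPM in all 18 libraries, with overlapping groups in every comparison. It did not pass the test in any of the 8 comparisons, and its smallest unadjusted p was 0.154.

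*ALDH7A1*, the antiquitin enzyme of lysine breakdown, was highest in parental Panc1 cells, with 57.6, 62.9 and 53.4 TPM. The Panc1 Holoclone libraries had 27.4, 34.2 and 27.8 TPM and the Panc1 Paraclone libraries 31.9, 31.6 and 35.3 TPM, all below the parental libraries. The differences from parental cells were −0.94 ± 0.28 (SE, adjusted p = 0.0440) in the Holoclone and −0.79 ± 0.28 (SE, adjusted p = 0.0468) in the Paraclone cells, and both passed the threshold with no margin, since leaving out any 1 of the libraries compared brought the adjusted p above 0.05. In Panc89 the order differed, with 34.5, 36.3 and 37.3 TPM in parental, 65.5, 47.5 and 32.9 TPM in Holoclone and 10.7, 32.4 and 18.4 TPM in Paraclone cells. Panc89 Paraclone cells were 0.91 ± 0.28 (SE) below parental Panc89 cells (adjusted p = 0.0333), and parental Panc89 cells were 0.67 ± 0.28 (SE) below parental Panc1 cells (adjusted p = 0.0486). The second call was lost under every alternative except the fit of these groups alone. The first was lost with no filter on low values, in the fit of these groups alone, with the replicate block (adjusted p = 0.0587), without each parental library and without Paraclone replicate 1 or 3.

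Counted over the genes, 9 of the 10 passed the filter of 1 TPM in 3 libraries, and *ALDH1A2* did not. *ALDH1A1*, *ALDH3A1* and *ALDH3B2* passed it only through Panc89 cells, where they are high. Between the parental lines, 6 of 9 were called, 5 higher and 1 lower in Panc89, where 66% of all genes were called, 27.5% higher and 38.5% lower (4421 and 6202 genes, or 5447 and 5068 with median-of-ratios scaling). Of the 5 higher, *ALDH1A1* (1.98 ± 0.23 SE), *ALDH3A1* and *ALDH3B2* had to differ to be counted, which leaves *ALDH3A2* and *ALDH3B1* higher and *ALDH7A1* lower among the 6 genes that reached 1 TPM in both lines. The median difference of all genes was −0.18.

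Holoclone against Paraclone cells of Panc1 gave 1 of 9 called, *ALDH1A3*, lower in the Holoclone, where 37.3% of all genes were called, 27.4% higher and 9.97% lower (4402 and 1604 genes, or 2440 and 2672 with median-of-ratios scaling). The median difference of the 9 was −0.15 and that of all genes 0.19, and with upper quartile or median-of-ratios scaling, which bring the median of all genes to 0.01 and 0, *ALDH3A2* was called as well, at −0.71 and −0.73. In Panc89 the same contrast called 35.7% of all genes, 22.4% higher and 13.3% lower (3606 and 2140 genes, or 2915 and 2992 with that scaling), and since it chose *ALDH3A1*, the members are described without calls. There, *ALDH3A1* (6.50), *ALDH2* (2.50), *ALDH7A1* (1.28) and *ALDH3A2* (1.19) had every Holoclone library above every Paraclone library, *ALDH3B1* (−0.79) had every one below, and *ALDH3B2* (0.84), *ALDH1B1* (0.36), *ALDH1A3* (0.18) and *ALDH1A1* (−0.27) overlapped. The genes were taken by symbol, with no threshold on this contrast.

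**Figure D2:**
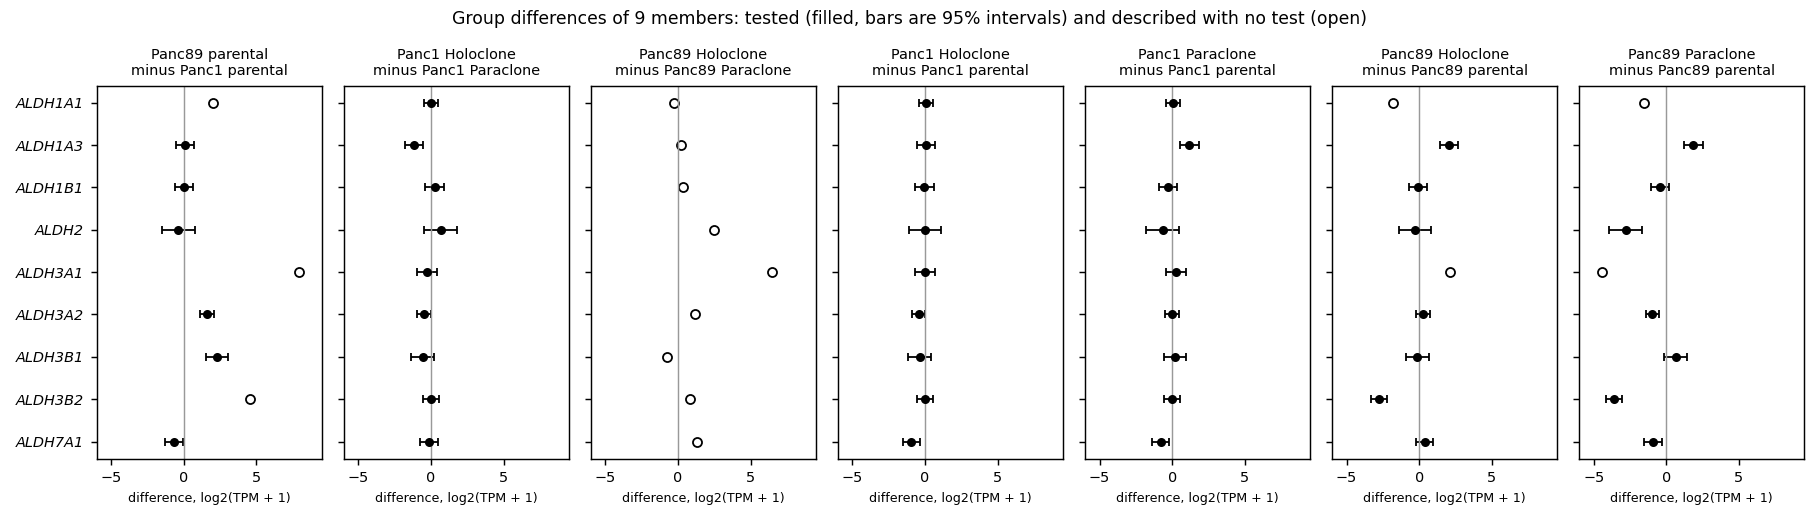
Differences of group means on the log2(TPM + 1) scale (horizontal axis) for the 9 members that passed the filter (vertical axis) in 7 comparisons (panels). Filled points have 95% intervals from the test, and open points are descriptions with no test. *ALDH1A3* is above parental cells in both Panc89 clones and in the Panc1 Paraclone, and *ALDH3A1* has the widest range, from −4.40 to 7.95.

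Against their parental cells, Panc1 Holoclone cells had 1 of 9 called, *ALDH7A1*, lower, where 10.9% of all genes were called, 5.87% higher and 5.06% lower. Panc1 Paraclone cells had 2 of 9 called, *ALDH1A3* higher and *ALDH7A1* lower, against 28.6% of all genes, 7.31% higher and 21.3% lower (1177 and 3422 genes, or 2002 and 1772 with median-of-ratios scaling). Panc89 Holoclone cells had 3 of 8 called, *ALDH1A3* higher and *ALDH1A1* and *ALDH3B2* lower, against 24.7%, 16.1% higher and 8.61% lower (2595 and 1386 genes, or 1964 and 1886 with median-of-ratios scaling). The call of *ALDH1A1*, here and in the Paraclone cells, was fixed by the filter. Panc89 Paraclone cells had 6 of 8 called, *ALDH1A3* higher and *ALDH1A1*, *ALDH2*, *ALDH3A2*, *ALDH3B2* and *ALDH7A1* lower, against 19.4%, 9.37% higher and 10% lower. The comparisons with the parental cells of a line share those libraries, and so do the calls in both clones.

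Between lines, Panc89 Holoclone cells had 4 of 8 called against Panc1 Holoclone cells, all 4 higher, where 65.8% of all genes were called, 29.3% higher and 36.4% lower (4720 and 5863 genes, or 5457 and 5010 with median-of-ratios scaling). These were *ALDH3B1* (2.51), *ALDH3A2* (2.27), *ALDH1A3* (2.08) and *ALDH3B2* (1.81). Panc89 Paraclone cells had 6 of 8 called against Panc1 Paraclone cells, where 60.7% were called, 30.2% higher and 30.4% lower (4868 and 4899 genes, or 5214 and 4792 with that scaling). There, *ALDH3B1* (2.73), *ALDH3B2* (0.95), *ALDH1A3* (0.76) and *ALDH3A2* (0.62) were higher and *ALDH2* (−2.52) and *ALDH7A1* (−0.79) lower, and 3 of the 6 calls, those of *ALDH1A3*, *ALDH3A2* and *ALDH7A1*, were lost without Panc89 Paraclone replicate 3. *ALDH3B2* is in both counts only because it reached 1 TPM in Panc89.

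Summed over all 19 family genes, TPM were 378 ± 19.7 (SD, n = 3) in parental Panc1, 327 ± 38.8 in Panc1 Holoclone, 394 ± 10.6 in Panc1 Paraclone, 811 ± 53.7 in parental Panc89, 1891 ± 306 in Panc89 Holoclone and 663 ± 83.8 in the Panc89 Paraclone cells. *ALDH3A1* was 57.7% ± 3.57 (SD, n = 3) of this sum in Panc89 Holoclone cells, 31.1% ± 2.75 in parental Panc89 and 2.00% ± 1.25 in Panc89 Paraclone cells. *ALDH1A3* was 41.8% ± 14.5 of it in Panc89 Paraclone and 40.2% ± 8.73 in Panc1 Paraclone cells, against 16.0% ± 0.69 and 21.4% ± 0.53 in the Holoclone cells. Without *ALDH3A1* the sums were 558 ± 16.7 TPM in parental Panc89, 801 ± 158 TPM in Panc89 Holoclone and 650 ± 89.2 TPM in Panc89 Paraclone cells, so the Panc89 clones overlapped without it and did not overlap with it.

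**Figure D3:**
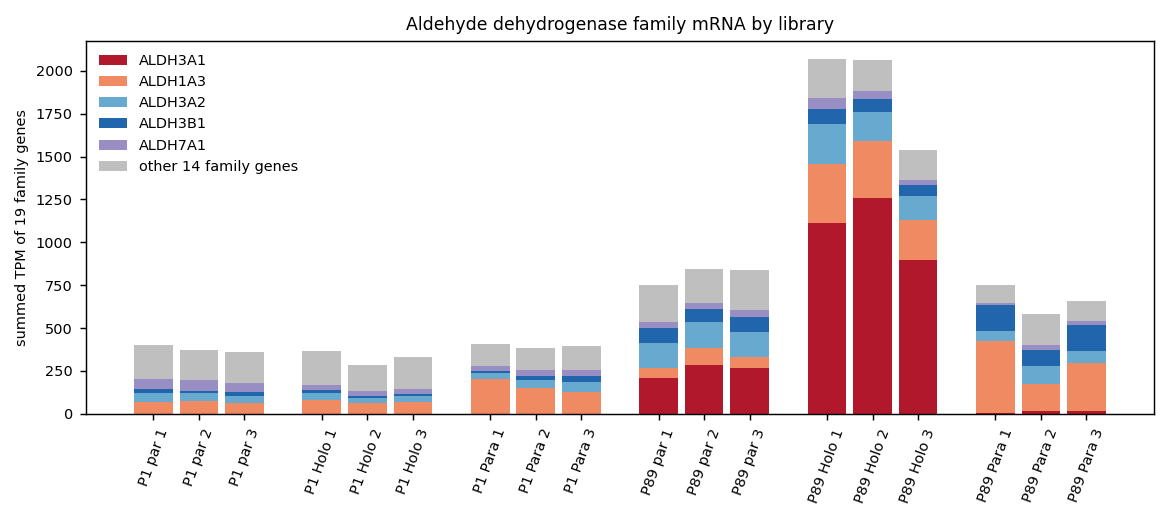
Summed TPM of the 19 aldehyde dehydrogenase genes (vertical axis) in each library (bars, by group and replicate), divided into 5 genes and the other 14. Panc89 Holoclone libraries reach 1537 to 2072 TPM, with *ALDH3A1* as the largest block. *ALDH1A3* is the largest of the 5 genes shown in every Panc1 library, of parental, Holoclone and Paraclone cells alike, and in every Panc89 Paraclone library.

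Of the other 9 family genes, 8 were tested and *ALDH8A1* was not. In Panc1 Holoclone against Panc1 Paraclone cells, 3 of 8 were called, all higher, beside 37.3% of all genes called and 27.4% higher. These were *ALDH1L2*, the mitochondrial formyltetrahydrofolate dehydrogenase (1.87, adjusted p = 0.000778), *ALDH5A1*, the succinic semialdehyde dehydrogenase of GABA breakdown (1.51, adjusted p = 0.000526), and *ALDH18A1*, which starts proline synthesis from glutamate (0.50, adjusted p = 0.00531). In Panc89 Holoclone against Panc89 Paraclone cells, 3 of 8 were called as well, all higher, beside 35.7% of all genes called and 22.4% higher. These were *ALDH5A1* (0.78, adjusted p = 0.0382), *ALDH18A1* (0.73, adjusted p = 0.000344) and *ALDH6A1* of valine breakdown (0.67, adjusted p = 0.0353). In both lines the share called was near that of all genes. The median difference of the 8 was 0.47 in Panc1 and 0.49 in Panc89, where those of all genes were 0.19 and 0.09.

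Between the parental lines, 3 of the 8 were higher and 3 lower in Panc89, where 66% of all genes were called, with *ALDH1L2* (−3.01), *ALDH6A1* (1.87), *ALDH16A1* (1.61) and *ALDH5A1* (1.45) furthest from 0. Against parental cells, none of these genes passed limma-trend in Panc1 Holoclone cells, and *ALDH5A1* was the 1 gene with an unadjusted p under 0.05 (−0.69, adjusted p = 0.138). Panc1 Paraclone cells had *ALDH5A1* (−2.20), *ALDH1L2* (−2.20) and *ALDH18A1* (−0.46) lower, Panc89 Holoclone cells had *ALDH18A1* higher (0.42), and Panc89 Paraclone cells had *ALDH5A1* lower (−0.98). Of all genes, these comparisons called 28.6% (21.3% lower), 24.7% (16.1% higher) and 19.4% (10% lower). The Panc1 Paraclone split turned from 1177 higher and 3422 lower to 2002 and 1772 with median-of-ratios scaling. Between the Holoclones of the lines 4 were higher and 2 lower, where 65.8% of all genes were called, and between the Paraclones 4 were higher and 3 lower, where 60.7% were called. *ALDH1L1* reached 1 TPM in Panc89 alone and *ALDH1L2* in Panc1 alone. The filter therefore partly fixed their direction between the lines, so their differences there, with the −3.01 of *ALDH1L2*, are descriptions.

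The ALDH1A enzymes stand between the enzymes that make retinal and those that break down retinoic acid. Of 10 genes for the conversion, uptake and transport of retinol and retinal, not all of which make retinal, 9 were tested. In Panc89 Holoclone against Panc89 Paraclone cells, the retinol dehydrogenase *DHRS9* (4.04, adjusted p = 2.91e-07) and the retinoic acid carrier *CRABP2* (2.53, adjusted p = 2.00e-06) were higher, and the retinol uptake receptor *STRA6* (−3.94, adjusted p = 6.33e-07) and the retinol dehydrogenase *RDH10* (−1.97, adjusted p = 5.52e-05) were lower. This Panc89 contrast called 35.7% of all genes, 22.4% higher and 13.3% lower. In Panc1 the same contrast gave 3 calls, all lower, *SDR16C5* (−2.18), *DHRS3* (−1.73) and *DHRS9* (−1.31). There, 37.3% of all genes were called, 27.4% higher and 9.97% lower. Between the parental lines, 7 were higher and 1 lower in Panc89, led by *RDH10* (5.15), *STRA6* (4.33), *SDR16C5* (3.34) and *DHRS9* (3.25). *LRAT* passed the filter through Panc89 libraries alone, and *DHRS9* would not have passed it without them. The direction of both between the parental lines was therefore partly fixed by the filter. The comparison of the parental lines called 66% of all genes, 27.5% higher and 38.5% lower.

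Of 9 genes for retinoic acid breakdown and its receptors, 7 were tested. The retinoic acid hydroxylases *CYP26B1* (2.15, adjusted p = 9.16e-06) and *CYP26A1* (1.41, adjusted p = 0.000715) were higher in Panc1 Holoclone than in Panc1 Paraclone cells, beside the lower *ALDH1A3* of these cells. *CYP26C1* was higher there too (1.16), but it passed the filter only with the Panc1 Holoclone libraries, so no p is given. Among the receptors *RARA* was higher (0.56) and *RARG* lower (−0.70). This contrast called 37.3% of all genes, 27.4% higher and 9.97% lower. In Panc89, 2 were higher and 2 lower in the Holoclone, led by the receptor *RXRA* (2.15, adjusted p = 7.10e-10) and *CYP26B1* (−0.78, adjusted p = 0.0249). There, 35.7% of all genes were called, 22.4% higher and 13.3% lower. Both Panc89 clones had less *CYP26A1* than their parental cells, by −1.91 in the Holoclone and −1.86 in the Paraclone.

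Of 7 alcohol dehydrogenase genes only *ADH5* was tested, which was higher in Panc1 Holoclone than in Panc1 Paraclone cells (0.32, adjusted p = 0.0335) and in Panc89 Paraclone than in Panc1 Paraclone cells (0.76, adjusted p = 2.66e-05). The Panc1 contrast called 37.3% of all genes, 27.4% higher, with a median of 0.19. Its split turned to 2440 higher and 2672 lower with median-of-ratios scaling, under which *ADH5* is not given. The contrast of the Paraclones called 60.7%, 30.2% higher. Aldo-keto and carbonyl reductases turn aldehydes or ketones into alcohols. Of 11 such genes 9 were tested, and in Panc89 Holoclone against Panc89 Paraclone cells 5 were higher and 1 lower, with *AKR1C2* (3.54, adjusted p = 2.58e-05), *AKR1C1* (3.00, adjusted p = 5.88e-07), *CBR3* (1.96, adjusted p = 0.00279) and *AKR1C3* (1.02, adjusted p = 0.00100) leading. The *AKR1C* genes are near-identical copies, so the division of reads between them is uncertain. The median of the 9 was 0.88 and that of all genes 0.09, and 35.7% of all genes were called, 22.4% higher and 13.3% lower. In Panc1 the contrast gave 1 higher, *AKR1B1* (1.00), and 1 lower, *CBR1* (−1.11), where 37.3% of all genes were called.

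The aryl hydrocarbon receptor (AHR) is known to induce *ALDH3A1* and the *CYP1* genes. Of 8 genes of this list, 7 were tested. In Panc89 Holoclone against Panc89 Paraclone cells, 4 were higher, *CYP1A1* (1.97, adjusted p = 1.52e-07), *AHR* (1.65, adjusted p = 1.68e-05), *NQO1* (1.51, adjusted p = 0.000675) and *TIPARP* (0.47, adjusted p = 0.0112), and *CYP1B1* was lower (−0.77, adjusted p = 0.0139). In Panc1, 5 were lower in the Holoclone and 1 higher, led by *CYP1B1* (−2.63), *AHR* (−1.83), *TIPARP* (−1.50) and *NQO1* (−0.96). *CYP1A1* and *ARNT* went the other way there, with every Holoclone library above every Paraclone library. *CYP1A1* was under 1 TPM in all of these, at 0.425 to 0.771 TPM in Holoclone and 0 to 0.170 TPM in Paraclone libraries. The list's median was 0.55 in Panc89 and −0.96 in Panc1, where those of all genes were 0.09 and 0.19. The Panc89 contrast called 35.7% of all genes, 22.4% higher and 13.3% lower. The Panc1 contrast called 37.3%, 27.4% higher and 9.97% lower. The *AHR* level itself was 4.07 ± 0.24 (SD, n = 3) in the parental, 3.61 ± 0.07 in the Holoclone and 5.44 ± 0.12 in the Paraclone cells of Panc1. In Panc89 it was 6.96 ± 0.23 (SD, n = 3) in the parental, 6.60 ± 0.39 in the Holoclone and 4.95 ± 0.39 in the Paraclone cells. Its part in the level of *ALDH3A1* was not tested.

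Among tested genes outside the family, those with group means most like *ALDH3A1* were *AQP3*, *TMEM132D-AS1*, *TPRG1*, *LY6D* and *TP63*, with root mean square distances of 0.77, 1.20, 1.20, 1.29 and 1.38 between the centered profiles of the 6 groups, on a range of 10.1 for *ALDH3A1*. The glycerol and water channel *AQP3* was at 7.91 in parental Panc89, 9.64 in Panc89 Holoclone and 5.58 in the Panc89 Paraclone cells and at 0.48 to 0.64 in Panc1. The transcription factor *TP63* of basal epithelia was at 5.46, 7.16 and 4.07 in the same Panc89 groups and at 0.08 to 0.42 in Panc1. For *ALDH1A3* the nearest profile was that of the scaffold gene *HOMER3* (0.27 on a range of 2.12), followed by *SRPX*, *RNVU1-25*, *LINC02454* and *NOTCH2NLB*, and for *ALDH1A1* that of *SLURP1* (0.09 on a range of 1.98), followed by *GLTPD2*, *GABRP*, *ATP10B* and *RIPOR2*. These likenesses are over 6 group means, which share their libraries with the genes compared.

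**Figure D4:**
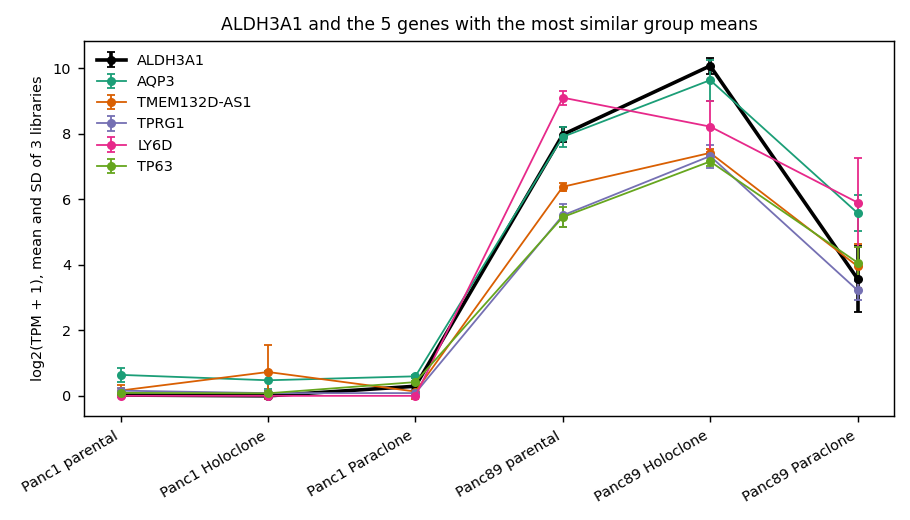
Mean level in log2(TPM + 1) with the SD of 3 libraries (vertical axis) in the 6 groups (horizontal axis) for *ALDH3A1* and the 5 genes of most similar profile. All 6 genes are below 1 in Panc1, and 5 of them are highest in Panc89 Holoclone cells, while *LY6D* is highest in parental Panc89 cells.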

How the data were processed

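From 3 passages of every cell variant, RNA was isolated, and stranded mRNA libraries were read paired-end. The authors quantified transcripts with kallisto (version 0.46.1 in the submitters' processing notes) using the Ensembl transcripts of GRCh38, and tximport gave scaled TPM. In the deposited table each value is log2 of TPM + 1, as the sums of the back-converted TPM show (985339 to 988066). They hold no counts, so depth and counting error are unknown, and a value of 0 may be a failed estimate.

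Groups follow the labels. Differences were fitted with limma 3.58.1 in R 4.3.3 (lmFit, eBayes with trend) over all 18 libraries, with 6 group means, for the 16093 genes that reached 1 TPM in 3 or more libraries. Tests were two-sided, adjusted over these genes by Benjamini-Hochberg, with a threshold of 0.05. TPM ratios compare group means of TPM and are given where both reach 1 TPM. Log2 differences understate the change of genes near 1 TPM. Adding 0.1 TPM, no filter, other scalings, no variance trend, 2-group fits, a replicate block and each library left out were tried.

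The members, gene lists and rules were chosen with earlier results of these data known. All 10 members are named, the other family genes and listed genes if past the threshold (up to 4 by size), and for *ALDH3A1*, *ALDH1A3* and *ALDH1A1* the 5 genes with the most similar group means. *ALDH5A1* in Panc1 Holoclone cells and *SLC47A1* were named after their values were seen. A further gene of the lists is not reported here. Libraries of a line with the same replicate number had correlations of −0.318 to 0.190 in their deviations from group means (mean −0.0418, 18 pairs), so they were not paired. The test was tried on simulated data first. Positions and 31-base words are from GENCODE 44, and promoters from RefSeq. Python 3.11.15 drew the figures.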

Additional observations from a re-analysis of the deposited data

Results flagged for a closer look

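*ALDH3A1* had differences of opposite sign between the clones of the lines, and neither is a call in the main fit. Its Holoclone minus Paraclone difference was −0.29 ± 0.33 (SE, limma-trend adjusted p = 0.531) in Panc1, where all 3 Holoclone libraries were listed at 0 and all 3 Paraclone libraries lay between 0.140 and 0.348 TPM, and 6.50 in Panc89, where the libraries did not overlap either. The difference between the lines was not tested, since the Panc89 contrast chose the gene, and the Panc1 values are under 0.4 TPM. The Panc1 difference was called with 0.1 TPM added and in the fit of 2 groups only.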

How the results depend on the processing

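TPM keep no depth, and a clone is 1 clone, so neither counting error nor variation between clones is covered. The replicate block is a fit of groups that share a number only. It brought the members called in Panc1 Holoclone against parental cells from 1 to 0 and in Panc1 Paraclone against parental cells from 2 to 1, both by *ALDH7A1* (adjusted p = 0.0792 and 0.0741). The first count was also 0 with 0.1 TPM added or no filter, and 0 without each library in turn. The second was also 1 with no filter, upper quartile or median-of-ratios scaling and no variance trend, and 1 without each library in turn. Members called in Panc1 Holoclone against Paraclone cells rose from 1 to 2 with 0.1 TPM added or 2 groups only (*ALDH3A1*) and with either scaling (*ALDH3A2*), and were 1 to 2 over libraries left out, with *ALDH3B1* called (−1.06, adjusted p = 0.0156) without Panc1 Paraclone replicate 1. In Panc89 against Panc1 Paraclone cells they fell from 6 to 3 with 2 groups only, and were 3 to 5 over libraries left out. Sign changes were those of *ALDH1A3* in Panc89 Holoclone against Paraclone cells (−0.189 without Panc89 Paraclone replicate 2, up to 0.512 without others) and between parental lines (−0.164 without Panc89 parental replicate 2, up to 0.228), and of *ALDH2* in Panc1 Holoclone against Paraclone cells (−0.0855 without Panc1 Paraclone replicate 1, up to 1.21). The *ALDH3A1* difference of the Panc89 clones was 6.38 to 6.64 over the other settings and 5.94 to 6.90 over libraries left out. All genes called fell from 5746 to 3377 in Panc89 Holoclone against Paraclone cells with 2 groups only, and from 1759 to 1061 in Panc1 Holoclone against parental cells without Panc1 Holoclone replicate 3. The scalings moved the split of higher and lower calls by over 10 percentage points in 5 comparisons, where both splits are given above. The larger direction also turned between the Holoclones and between the Paraclones of the lines, with the splits given above, in Panc89 Paraclone against parental cells, from 1508 higher and 1612 lower to 1741 and 1676 with median-of-ratios scaling, and in Panc1 Holoclone against parental cells, from 945 higher and 814 lower to 783 and 986 with upper quartile and 819 and 943 with median-of-ratios scaling. The cause of these changes was not tested.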
